A study of Equus caballus with 10 samples.

Results

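The collagens that surround, link or anchor the main fibrils of tendon were described in equine tenocytes, the resident cells of tendon, under 2 culture conditions. The genes were chosen by name, with earlier results of these data known. They were the beaded-filament chains COL6A1, COL6A2 and COL6A3, the fibril-associated COL12A1, COL14A1 and COL16A1, the proteoglycan collagens COL15A1 and COL18A1, and the short-chain network collagens COL8A1 and COL10A1. All 10 were matched by gene name among the 29196 genes of the deposited table. Primary tenocytes of the superficial digital flexor tendon came from 5 donor horses, called donors 1 to 5, and each donor gave 1 library to each condition. In both conditions the cells were held for 14 days in 3D gels made of bovine type I collagen, and both received the IRAK-4 inhibitor PF-06650833 at 100 nM every day. One group (PF, 5 libraries) received nothing more, and the other (IL-1β + PF, 5 libraries) also received IL-1β at 17 ng/ml every 3 to 4 days. Libraries without the inhibitor were not analysed here, so every difference below is that of IL-1β in cells that also had PF-06650833.

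Collagen VI forms beaded filaments around the cells, from trimers in which the COL6A1 and COL6A2 chains join another chain, most often that of COL6A3. Collagens XII, XIV and XVI lie on the surface of fibrils and reach out from it, and collagen XII is abundant in tissues under tension such as tendon. Collagens XV and XVIII sit in or near basement membranes and carry glycosaminoglycan chains, and the end of the collagen XVIII chain can be released as endostatin. Collagens VIII and X are short chains that assemble into lattices, that of collagen VIII around vessels and in remodelling tissue and that of collagen X in hypertrophic cartilage.

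Expression is given as the variance-stabilized log2 value that the authors deposited, on which 0 reads have the value 3.433 and 1 unit is close to a doubling for well expressed genes. Approximate normalized counts, obtained by inverting that transformation, summed to between 34834100 and 38755200 per library in the PF group and to between 34358400 and 37965000 in the IL-1β + PF group. The tenocyte factors SCX and MKX were expressed in both groups (means of 11.12 and 11.45 in the PF group, 7.87 and 8.60 in the IL-1β + PF group), whereas TNMD, a late marker of tenocytes, had the value of 0 reads in all 10 libraries. Of the tenocyte list, 4 of 9 tested genes were differentially expressed and all 4 were lower in the IL-1β + PF group. They were SCX, MKX, COMP and TNC, with log2 fold changes of -3.24, -2.85, -3.63 and -2.04. DCN, on the same list, was higher in 5 of 5 donors and was not called (log2 fold change 1.01, adjusted p = 0.268 from limma). Endothelial, leukocyte, cartilage, epithelial and adipocyte lists gave 0 of 6, 1 of 5, 1 of 3, 2 of 4 and 1 of 2 tested genes differentially expressed. The share over all tested genes was 6.68%. In the IL-1β + PF group the leukocyte marker CD68 and the adipocyte marker ADIPOQ were higher. The cartilage marker ACAN and the epithelial markers CDH1 and KRT19 were lower. The leukocyte markers CD3E and TYROBP and the epithelial marker EPCAM had 0 reads in all libraries. Summed over 8 endothelial markers, normalized counts ran from 51.0 to 101 in PF libraries and from 76.0 to 181 in IL-1β + PF libraries. For 9 leukocyte markers the sums were 222 to 1978 and 345 to 2149, for 8 cartilage markers 3642 to 11910 and 41.8 to 215.0, for 6 epithelial markers 617 to 2584 and 45.4 to 444, and for 4 adipocyte markers 20.3 to 167 and 362 to 2326. The cartilage sums of the PF group were almost wholly ACAN (mean 7396, against 95.8 in the IL-1β + PF group). The adipocyte sums were mostly ADIPOQ (means 83.8 and 1061). For 7 markers of pericytes and smooth muscle the sums were 30917 to 186365 and 36987 to 77983, with 2 of the 7 lower and none (0) higher. The part of cell composition in the collagen values was not tested, and in these bulk libraries fewer cells of a type and less RNA per cell cannot be told apart.

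In the IL-1β + PF group, COL12A1 fell 6.68-fold, COL18A1 fell 3.50-fold and COL8A1 fell 2.60-fold, and these 3 of the 10 genes were differentially expressed by limma (adjusted p under 0.05 with a change of 1 log2 unit or more). Over all 17992 tested genes 6.68% were differentially expressed, with 3.57% lower and 3.11% higher. None (0) of the 10 was higher. At an unadjusted limma p below 0.05, 8 of the 10 were lower, against 29.7% of all tested genes either way and 14.8% lower. These 8 include COL10A1, which had few reads and passed the filter on low values mainly through the PF group, where it was higher. COL10A1 is therefore not counted as support. With the donor as a replicate block, COL6A3 was also differentially expressed, which made 4 of 10, all lower, against 8.26% of all tested genes (4.25% lower and 4.01% higher). With no minimum fold change the count was 4 of 10 without a donor term, against 15.5% of all tested genes, and 6 of 10 with the replicate block, all lower, against 22.2% (11.3% lower). All 9 genes with a mean of more than 3 normalized counts in either group had a lower mean in the IL-1β + PF group, as did 50.7% of all tested genes. Of these 9, 6 were lower in all 5 donors, against 16.8% of all tested genes. That count includes COL15A1 and COL18A1, which hardly moved in donor 3 (differences of -0.0018 and -0.027 log2 units). Fold changes had a median of -1.08 on the log2 scale for these 9 genes, and of -0.95 with COL10A1 included, against -0.0063 over all tested genes.

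**Figure D1:**
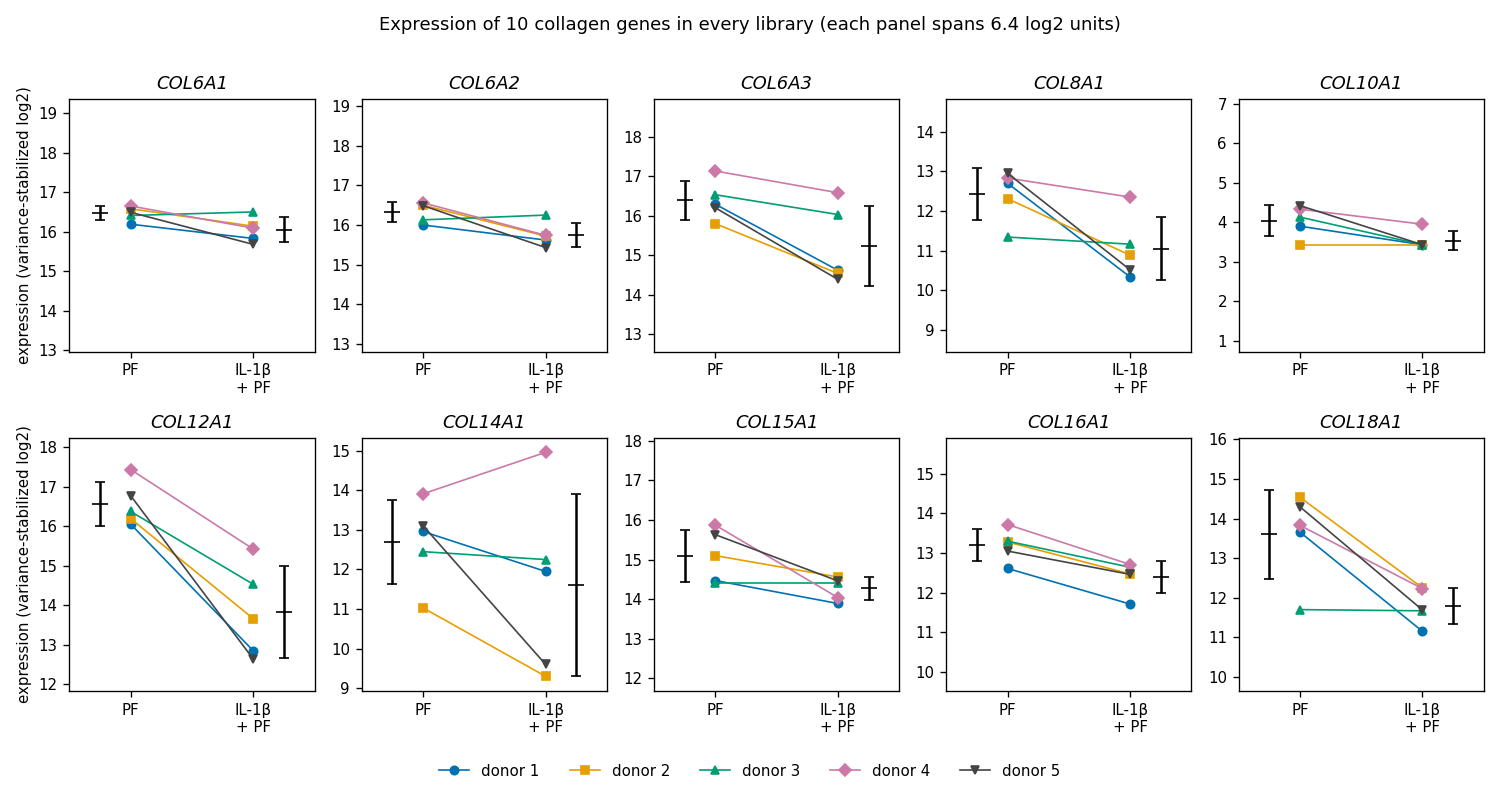
Variance-stabilized log2 expression of the 10 collagen genes in every library, with the PF group on the left and the IL-1β + PF group on the right of each panel. Lines join the libraries of 1 donor, and the bars at the sides are the mean ± SD of 5 libraries. The groups of COL12A1 do not overlap, while COL14A1 rises in donor 4 and falls in the other 4 donors.

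COL12A1, the fibril-associated collagen of tissues under tension, had the largest fall of the 10 genes. Its log2 expression in donors 1 to 5 was 16.05, 16.19, 16.37, 17.43 and 16.77 in the PF group, and 12.85, 13.66, 14.53, 15.42 and 12.64 in the IL-1β + PF group. Every IL-1β + PF library lay below every PF library. This separation was found for COL12A1 only among the 10 genes, while the share without overlap was 12.7% of all tested genes (6.41% lower). In normalized counts the mean was 103109 ± 44314 (SD, n = 5) in the PF group and 18856 ± 15601 (SD, n = 5) in the IL-1β + PF group. The log2 fold change was -2.74 (standard error 0.50, adjusted p = 0.00473 from limma), and COL12A1 was differentially expressed in every alternative run, with adjusted p-values from 7.12e-04 to 0.0291. Within each donor COL12A1 had the largest fall of the 9 genes above the floor of 3 normalized counts. The fall was smallest in donors 3 and 4, by 1.84 and 2.01 log2 units, and largest in donor 5, by 4.13.

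COL14A1, another fibril-associated collagen, had the widest spread of the 10 genes in the IL-1β + PF group (SD 2.30, n = 5). It stood at 12.96, 11.03, 12.45, 13.91 and 13.11 in donors 1 to 5 in the PF group and at 11.95, 9.30, 12.25, 14.96 and 9.60 in the IL-1β + PF group. The value fell in 4 donors, by 3.51 log2 units in donor 5, and was 1.05 units higher in donor 4, so the groups overlapped widely. The log2 fold change was -1.08 (standard error 0.96, adjusted p = 0.501 from limma). On the scale of normalized counts, where donor 4 weighs more, the means were 7949 ± 4886 (SD, n = 5) and 8393 ± 13222 (SD, n = 5), with the higher mean in the IL-1β + PF group. The value depended on single libraries: the log2 fold change was -1.92 without the IL-1β + PF library of donor 4, -0.50 without that of donor 2, -0.58 without that of donor 5 and -0.47 without donor 5 as a whole. COL14A1 was differentially expressed in none (0) of these fits.

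COL16A1, a smaller collagen of the fibril surface, had the most even change of the 9 genes above the floor. It was at 12.61, 13.28, 13.30, 13.72 and 13.05 in the PF group and at 11.71, 12.47, 12.64, 12.71 and 12.46 in the IL-1β + PF group. The value was lower in all 5 donors, by 0.59 to 1.01 log2 units. Its adjusted p was below 0.05 (log2 fold change -0.80, standard error 0.23, adjusted p = 0.0358 from limma), and it was not counted as differentially expressed because the change was smaller than 1 log2 unit. Leaving out single libraries or donors raised the adjusted p to as much as 0.125, and with the replicate block it was 0.00142 (standard error 0.092).

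**Figure D2:**
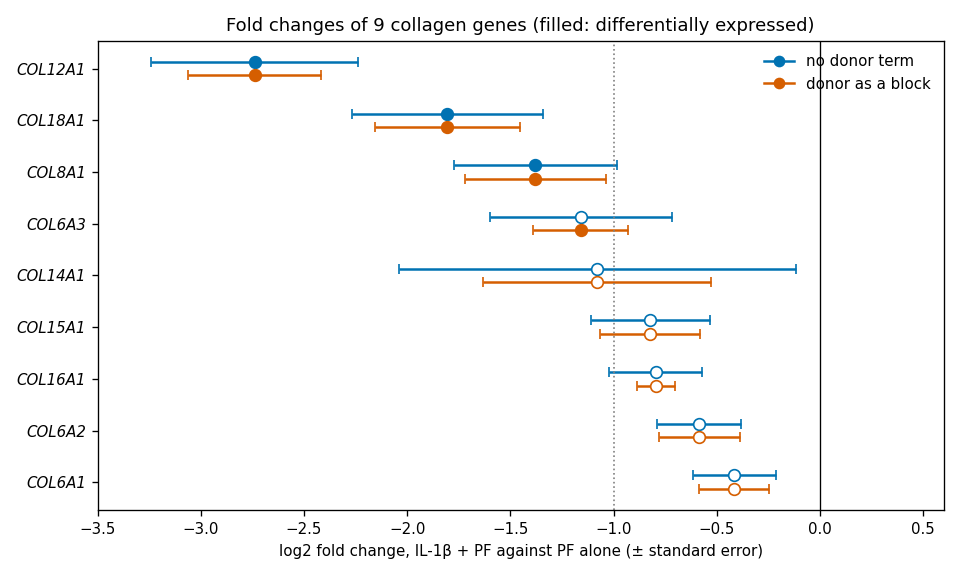
Log2 fold changes of 9 collagen genes, IL-1β + PF against PF, with bars of 1 standard error from limma, without a donor term (blue) and with the donor as a block (orange). Filled points are differentially expressed and the dotted line marks the minimum change. COL6A3 is filled only with the donor block, and COL10A1 is left out because it had too few reads.

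COL18A1, the source of endostatin, fell in 4 of the donors and hardly moved in donor 3. Its values were 13.66, 14.54, 11.70, 13.83 and 14.30 in donors 1 to 5 in the PF group and 11.15, 12.25, 11.67, 12.23 and 11.69 in the IL-1β + PF group. Donor 3 was already at 11.70 in the PF group, within the range of the other group, and differed by -0.03 between the conditions. In the other 4 donors the falls were 1.60 to 2.61 log2 units. The log2 fold change over all donors was -1.81 (standard error 0.46, adjusted p = 0.0233 from limma). Leaving out the PF library of donor 2, 4 or 5, or the IL-1β + PF library of donor 1 or 5, raised the adjusted p to between 0.0507 and 0.0618, and leaving out donor 1, 2, 4 or 5 as a whole raised it to between 0.0540 and 0.114. With the replicate block it was at most 0.0485 when each donor was left out in turn, a fit added after the data were seen.

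COL15A1, which is related to COL18A1, was at 14.47, 15.10, 14.41, 15.87 and 15.63 in the PF group and at 13.89, 14.56, 14.41, 14.04 and 14.46 in the IL-1β + PF group. All 5 libraries in the IL-1β + PF group lay within 0.67 log2 units, against 1.46 units in the PF group. In donor 4 it fell by 1.83 units, the most of any donor, and as for COL18A1 the smallest difference was that of donor 3, where it fell by 0.0018 units. The log2 fold change was -0.82 (standard error 0.29, adjusted p = 0.0797 from limma), and it was differentially expressed only without donor 3 (-1.03, adjusted p = 0.0484, and 0.0219 with the replicate block). Its adjusted p ranged up to 0.221 over the other alternatives.

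Among the chains of collagen VI, COL6A3 had a log2 fold change below -1, while those of COL6A1 and COL6A2 were nearer to 0. COL6A3 was at 16.29, 15.80, 16.53, 17.13 and 16.20 in the PF group and at 14.62, 14.54, 16.03, 16.58 and 14.39 in the IL-1β + PF group. It was lower in all 5 donors, by 0.50 and 0.55 log2 units in donors 3 and 4 and by 1.26 to 1.81 in the other 3, and the groups overlapped, with the highest IL-1β + PF values in donors 3 and 4. Without a donor term it was not differentially expressed (log2 fold change -1.16, standard error 0.44, adjusted p = 0.103 from limma), and with the replicate block it was (standard error 0.23, adjusted p = 0.0110). The adjusted p ranged from 0.00919 to 0.290 over all alternatives. Without the IL-1β + PF library of donor 4 it was 0.0199 with no donor term, and with the replicate block the call was lost without donor 1 (log2 fold change -1.03, adjusted p = 0.0572) and without donor 5, where the change of -0.997 was just under the minimum (adjusted p = 0.0369).

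COL6A1 stood at 16.19, 16.58, 16.41, 16.65 and 16.49 in the PF group and at 15.83, 16.14, 16.50, 16.09 and 15.68 in the IL-1β + PF group. COL6A2 stood at 16.00, 16.50, 16.13, 16.56 and 16.49, and at 15.62, 15.72, 16.25, 15.74 and 15.43. Both were lower in 4 donors and slightly higher in donor 3, by 0.09 and 0.12 log2 units. Neither was differentially expressed, with log2 fold changes of -0.42 for COL6A1 (limma, standard error 0.20, adjusted p = 0.192) and -0.58 for COL6A2 (standard error 0.20, adjusted p = 0.0766). By gene order in RefSeq, taken from a different horse assembly that held all 10 names, COL6A1 and COL6A2 were neighbours with 0 protein-coding genes between them. COL18A1 lay on the same chromosome, with SLC19A1 and PCBP3 between it and COL6A1. SLC19A1 had a log2 fold change of -0.20 (adjusted p = 0.516 from limma), and PCBP3 was not tested.

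COL8A1, the network collagen with ample reads, was at 12.70, 12.31, 11.34, 12.83 and 12.95 in the PF group and at 10.33, 10.88, 11.16, 12.35 and 10.51 in the IL-1β + PF group. It fell by 1.43 to 2.44 log2 units in donors 1, 2 and 5, and by 0.18 and 0.48 in donors 3 and 4, and donor 4 had the highest value of the IL-1β + PF group. The log2 fold change was -1.38 (standard error 0.39, adjusted p = 0.0371 from limma). This call depended on single libraries: leaving out any library other than that of donor 3 in the PF group or that of donor 4 in the IL-1β + PF group gave adjusted p-values between 0.0519 and 0.0916, and leaving out donor 1, 2 or 5 gave 0.129 to 0.171. With the replicate block the adjusted p was 0.0253, and from 0.0692 to 0.0915 without donor 1, 2 or 5.

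COL10A1 was close to the limit of detection. Its normalized counts in donors 1 to 5 were 1.12, 0, 2.60, 4.28 and 5.20 in the PF group, and 0, 0, 0, 1.40 and 0 in the IL-1β + PF group. Reads were thus found in 4 PF libraries and in 1 IL-1β + PF library, that of donor 4. It passed the filter on low values, 5 libraries above 0 reads, with the minimum number and mainly through the PF group. No fold change is given, since both means were below 3 normalized counts, and the adjusted p was 0.125 from limma.

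**Figure D3:**
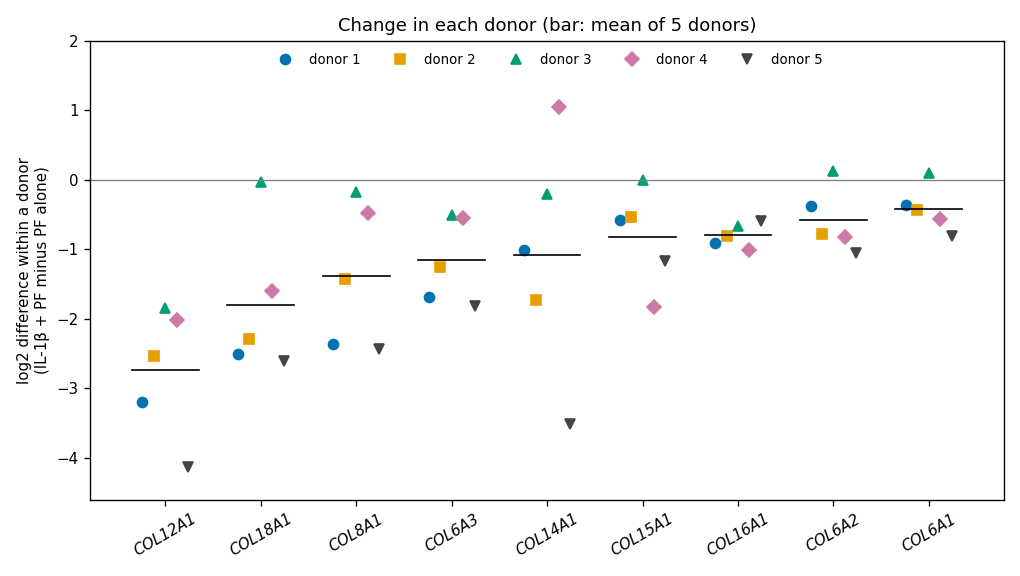
Difference in log2 expression between IL-1β + PF and PF within each donor, for the 9 genes above the floor, with the mean of 5 donors as a bar. COL12A1 has the lowest point in every donor, donor 3 lies nearest to 0 for most genes, and COL14A1 in donor 4 is the point furthest above 0.

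Donors differed in how many of these genes moved and by how much. Of the 9 genes above the floor, the median difference was -1.81 in donor 5, -1.26 in donor 2, -1.01 in donor 1, -0.82 in donor 4 and -0.18 in donor 3. Donors 1, 2 and 5 had all 9 genes lower, donor 4 had 8 lower and donor 3 had 7 lower. A fall of at least 1 log2 unit was found for 7 genes in donor 5, for 5 in each of donors 1 and 2, for 4 in donor 4 and for COL12A1 alone in donor 3. The smaller change of donor 3 was not particular to these genes: 2.61% of all tested genes fell by at least 1 unit in donor 3, against 6.09% to 9.84% in the other donors.

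Whether the balance between related chains changed was tested for 6 pairs of genes as the difference of their log2 values within each library. For COL12A1 minus COL14A1 the difference fell in all 5 donors, from 3.87 ± 0.78 (SD, n = 5) to 2.21 ± 1.59 (SD, n = 5), a change of -1.66 (standard error 0.79). The exact two-sided permutation test of this change gave p = 0.0794, or 0.119 after adjustment over the 6 pairs. COL6A1 minus COL6A2 had the narrowest spread of the pairs, from 0.13 ± 0.11 (SD, n = 5) to 0.30 ± 0.09 (SD, n = 5), a change of 0.17 (standard error 0.063, exact permutation p = 0.0476, adjusted p = 0.119). COL6A3 fell against COL6A1 in 4 donors, and in donor 4 the pair moved by 0.01, with a mean change of -0.74 (standard error 0.43, exact permutation p = 0.119, adjusted p = 0.143). Against COL6A2 the mean change of COL6A3 was -0.57 (standard error 0.45, exact permutation p = 0.246). COL15A1 minus COL18A1 changed by 0.98 (standard error 0.44, exact permutation p = 0.0635, adjusted p = 0.119), with rises of 1.44 to 1.93 in donors 1, 2 and 5 and changes of 0.03 and -0.23 in donors 3 and 4. COL8A1 minus COL10A1 changed by -0.87, and by -0.048 on the scale of log2(normalized count + 1), and is not read as a comparison, since COL10A1 had 0 reads in 4 of 5 IL-1β + PF libraries. No pair (0 of 6) passed after adjustment and 1 had an unadjusted p below 0.05. The smallest p that 5 libraries against 5 allow is 0.00794, and 0.0625 for the sign-flip test over 5 donors, so the paired test could not pass.

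**Figure D4:**
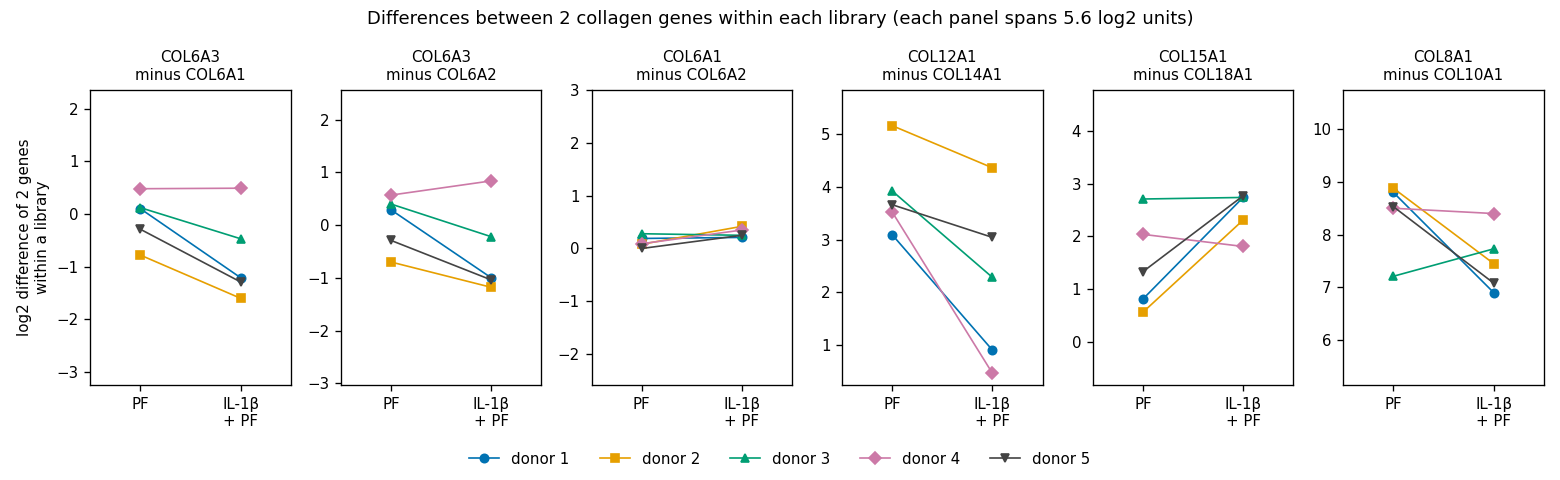
Difference between the log2 values of 2 collagen genes within each library, for 6 pairs of related genes, with lines joining the libraries of 1 donor. COL12A1 minus COL14A1 falls in every donor, COL8A1 minus COL10A1 rests on libraries with 0 reads of COL10A1, and COL6A1 minus COL6A2 stays within the narrow range of -0.0018 to 0.42.

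Other genes of the collagen pathway were taken from 4 lists. Of 8 tested non-fibrillar collagens outside the 10, such as COL8A2, COL13A1 and COL23A1, none (0) was differentially expressed by limma and none (0) had an unadjusted p below 0.05, and none (0) was called with the replicate block. COL6A6, COL17A1, COL21A1 and COL26A1 were close to the limit of detection, with group means of at most 4.44 normalized counts. The absence of calls therefore says little about those genes. COL8A2, which can form trimers with the COL8A1 chain, was at 13.35 ± 0.58 (SD, n = 5) and 12.75 ± 0.90 (SD, n = 5) and was lower in 3 of 5 donors. The median log2 fold change of these 8 genes was -0.15. Of 11 listed fibrillar collagens, 10 were found by name, COL3A1 not among them, and 8 were tested. Among these 8, 2 were lower, none (0) higher, and the median was -0.92. COL11A1, which helps to start thin fibrils, fell from 13.28 ± 0.81 (SD, n = 5) to 9.81 ± 1.33 (SD, n = 5), with groups that did not overlap (log2 fold change -3.46, standard error 0.59, adjusted p = 0.00344 from limma). COL5A1, which limits fibril width, fell by 1.10 log2 units in the mean (adjusted p = 0.0468), a call lost in most fits that left out a library or donor. COL1A1 and COL1A2, the chains of the main tendon fibril, had log2 fold changes of -1.38 and -1.28 (adjusted p = 0.0682 and 0.0614) and were differentially expressed with the replicate block, which made 4 lower fibrillar collagens.

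**Figure D5:**
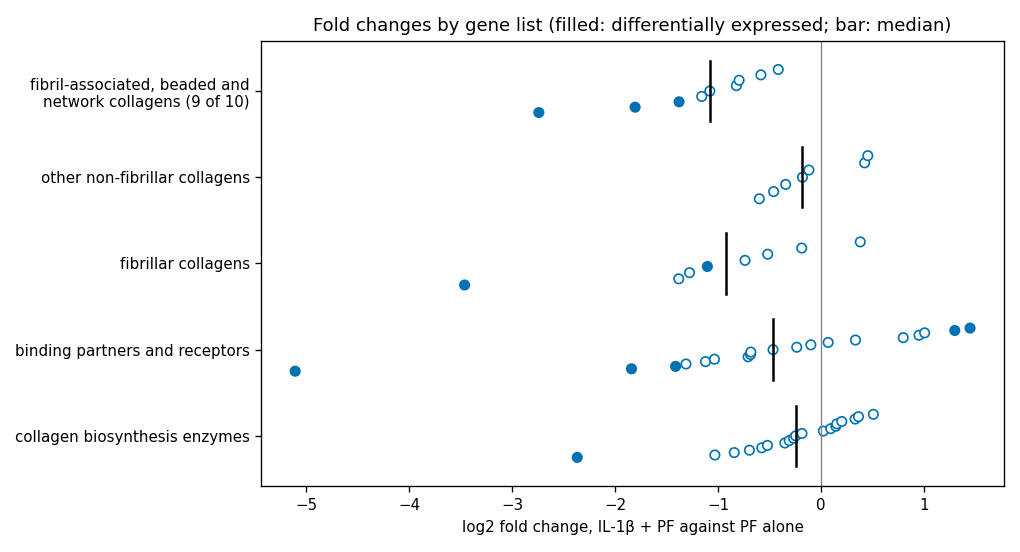
Log2 fold changes of the tested genes of 5 lists, IL-1β + PF against PF, for genes with a mean of more than 3 normalized counts in either group. Filled points are differentially expressed and bars are medians, which lie at -1.08 for the 9 collagens shown in the top row and between -0.92 and -0.18 for the other lists.

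Of 19 binding partners and receptors, 3 were lower and 2 higher. ITGA11, the integrin chain of a collagen receptor, was at 13.46, 13.87, 13.86, 15.70 and 15.21 in the PF group and at 8.27, 7.17, 12.16, 11.67 and 7.31 in the IL-1β + PF group. As for COL12A1, COL8A1 and COL6A3, its smaller falls were those of donors 3 and 4 (log2 fold change -5.11, standard error 0.99, adjusted p = 0.00628 from limma). CSPG4, a cell surface proteoglycan that binds collagen VI, fell by 1.84 log2 units (standard error 0.29), and FN1, the fibronectin gene, by 1.41 (standard error 0.40). The fall of CSPG4 is the same one already counted among the markers of pericytes and smooth muscle. NID1, which links laminin and collagen networks, rose by 1.30 log2 units (standard error 0.37), and DDR1, a collagen receptor kinase, by 1.45 (standard error 0.28). DDR2, also a collagen receptor kinase, went the other way, with a mean change of -0.68 units. Its values fell in each of the 5 donors and its groups did not overlap (limma, adjusted p = 0.0198). DDR2 was not called, because this change was under the minimum. ANTXR2, a receptor that binds collagen VI, was 0.95 units higher in the mean and higher in 5 of 5 donors (adjusted p = 0.00382), just under the minimum fold change. With the replicate block ITGA1 and HSPG2 were also lower, which made 5 lower and 2 higher. The calls of FN1 and NID1 were lost without single libraries, with adjusted p-values up to 0.107 for FN1 and 0.0839 for NID1, while those of ITGA11, CSPG4 and DDR1 held in every fit that left out a library or donor.

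Among 19 enzymes and chaperones of collagen synthesis, only LOX, which cross-links collagen, was differentially expressed by limma, and the median of the list was -0.25. LOX was at 14.11, 13.49, 14.69, 15.33 and 14.38 in the PF group and at 11.92, 11.17, 12.78, 13.83 and 10.47 in the IL-1β + PF group (log2 fold change -2.37, standard error 0.57, adjusted p = 0.0172). Without donor 1, 2 or 5 its adjusted p was between 0.0516 and 0.0735. The chaperone SERPINH1, which binds the collagen triple helix, had a log2 fold change of -0.27 (adjusted p = 0.501), and 8 of the 19 had an unadjusted p below 0.05 (5 lower and 3 higher), against 29.7% of all tested genes. P4HA3 (log2 fold change -0.84, adjusted p = 0.00169 from limma) and FKBP10 (-0.70, adjusted p = 0.0350) were lower in 5 of 5 donors. Both were under the minimum fold change. P3H2, a prolyl hydroxylase, was differentially expressed with the replicate block only, and lower.

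The genes whose 5 donor differences lay nearest to those of each differentially expressed collagen were found among 13855 other tested genes with a symbol, by root mean square distance in log2 units. LAMA3, a laminin chain, was nearest to COL12A1 (0.29), with differences of -2.86, -2.23, -1.50, -2.05 and -3.81 in donors 1 to 5. FUT1, a fucosyltransferase, was next (0.38). For COL18A1 they were WFDC1 (0.26), with a difference of 0.01 in donor 3, and MTUS1 (0.29). For COL8A1 they were CACNA1C (0.32), the pore chain of a calcium channel, and AFAP1L2 (0.33). These distances describe 5 donors, and no test was made of them.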

How the data were processed

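RNA-seq libraries of equine tenocytes of 5 donors, grouped by treatment and paired by the donor named in the sample labels, were analysed. According to the methods, the authors quantified reads, 31200000 to 41400000 per library by the labels, with Salmon (version 1.8) and GC-bias correction on the EquCab3.0 transcriptome and summed them to genes with tximport. The deposited values are log2 values, normalized between libraries and variance-stabilized, which was recognised from the values; the submitters' processing notes name DESeq2 (version 1.36). Read counts per gene were not used here. All 10 value columns were used.

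A gene was tested where 5 or more of the 10 libraries exceeded the lowest value. The test was limma 3.58.1 in R 4.3.3, using a mean-variance trend and no donor term, with Benjamini-Hochberg adjustment over 17992 genes. Normalized counts q were obtained from v, 2 raised to the deposited value, and c, that at 0 reads, as the squared difference of v and c over v. Same-donor libraries deviated together from their group means (correlations across genes of 0.367 to 0.506, against a mean of -0.107 between donors), so the donor pairs them. The fit was tested on simulated data. The collagens, lists and tests were chosen with earlier results of these data known. Named were all 10 collagens, the listed pathway genes that were differentially expressed, and the 2 nearest genes of each differentially expressed collagen. Other pathway genes were added after their values were seen: COL1A1, COL1A2, COL6A6, COL8A2, COL13A1, COL17A1, COL21A1, COL23A1, COL26A1, ANTXR2, DDR2, ITGA1, HSPG2, SERPINH1, P4HA3, FKBP10 and P3H2. So were the markers SCX, MKX, TNMD, COMP, TNC, DCN, ACAN, ADIPOQ, CD68, CD3E, TYROBP, CDH1, KRT19, EPCAM and ACTA2. Levels were not compared between genes, because transcript lengths were not used. Sequences are not given.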

Additional observations from a re-analysis of the deposited data

Results flagged for a closer look

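A library lay far from the other 4 of its group in 3 of 32 groups of 5 libraries, taken over the 10 genes and the 6 pairs, where chance gives about 1.6. COL16A1 was at 11.71 in donor 1 in the IL-1β + PF group, against 12.46 to 12.71 in the other 4 libraries. The same donor also had the lowest COL16A1 value in the PF group (12.61). COL10A1 was at 3.95 in donor 4 in the IL-1β + PF group, about 1.40 normalized counts, while the other 4 libraries had 0 reads. COL8A1 minus COL10A1 was 7.21 in donor 3 in the PF group, against 8.51 to 8.88 in the other 4, and it is donor 3 in which COL8A1 was lowest in that group.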

How the results depend on the processing

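Over 514 results of alternatives for 18 named genes, none (0) reversed, 439 stayed on the same side of the threshold (called or not called), 64 lost a call and 11 gained one. For these, the cause was not tested. Alternatives that changed only the filter, the donor term, the variance trend or a threshold kept the same fold change, so none could reverse it. A stricter adjusted p could only lose calls, and dropping the minimum fold change could only gain them. With the replicate block, 4 fibrillar collagens and 2 synthesis enzymes were called, against 2 and 1. It gave 7 binding partners, against 5, and added COL1A1 and COL1A2 to the tenocyte markers and ACTA2 to the pericyte markers called. At an adjusted p below 0.01 the calls were 1 of the 10 collagens (COL12A1), 1 fibrillar collagen, 3 binding partners and 0 enzymes. The count over all tested genes was 719 of 17992 at that threshold. With no minimum fold change there were 3 enzymes. Fibrillar collagens called numbered 1 with no filter on low values, 4 with no mean-variance trend and 4 with array weights. All tested genes gave 1162 of 21298, 1159 of 17992 and 1550 of 17992 in these settings. Leaving out libraries or donors gave 1 to 4 of the 10 collagens (5 with the replicate block and without donor 3, a fit added after the data were seen), 1 to 4 fibrillar collagens, 3 to 7 binding partners and 0 to 1 enzymes. The block fit without donor 3 called 1661 of 17439 tested genes. With libraries or donors left out and no block, calls ran from 747 of 17455 genes (without donor 1) to 1410 of 17734 (without the IL-1β + PF library of donor 4). The change of COL6A1 minus COL6A2 then lay between 0.12 and 0.22 and that of COL8A1 minus COL10A1 between -1.22 and -0.62, and both had an adjusted p of 0.0476 (exact permutation test) without the library of donor 3 in the PF group. The latter pair rests on COL10A1 values at 0 reads (change -0.048, adjusted p = 0.960 on log2(normalized count + 1), exact permutation test) and is not read as a change. COL10A1 fell under the filter in 9 of the 15 fits that left out libraries. The donor block changed no call other than those given. Depth limits what can be said of COL10A1.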

Other observations

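Taken as a share of all normalized counts, the 10 collagen genes made up 0.941% to 1.62% of a library in the PF group and 0.435% to 0.873% in the IL-1β + PF group, and the share was lower in each donor. The median share of the collagen VI chains together was 0.691% in the PF group and 0.396% in the IL-1β + PF group. For COL12A1 the median share was 0.243% and 0.0342%. These shares are not corrected for transcript length and are compared between groups only. Of the spread of COL16A1 around its group means, 95.4% lay between donors, and 84.9% for COL6A3, 77.3% for COL14A1 and 73.4% for COL12A1. For COL16A1 and COL6A3 the same donors thus tended to be high or low in both conditions. For COL12A1 and COL14A1 donor 4 was highest in both, but donor 5 did not keep its place. Its COL12A1 value was above the mean in the PF group (16.77) and the lowest in the IL-1β + PF group (12.64). Its COL14A1 value was likewise above the mean in the PF group (13.11) and low in the other (9.60). A share between donors is sizeable even where the conditions are unrelated, so the 31.1% of COL6A2 is no sign of a shared donor level.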
